A study of Mus musculus with 15 samples.

Results

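Inhibitory immune receptors, sialic acid-binding Siglecs and the paired receptor Pirb were followed as 8 genes, namely Siglech, Siglece, Cd33, Cd22, Sirpa, Pirb, Lilr4b and Cd300a. They were chosen as a list of names, and all 8 were found among the 54532 genes of the forebrain count table and among the 32285 genes of each of 2 microglia count matrices. The tested mice, called cKO here, were ATG7FF;Cx3cr1CreER, with floxed Atg7 alleles and a tamoxifen-inducible Cre driven from the Cx3cr1 locus, which is active in microglia and also in other macrophages and some blood monocytes. Control mice carried ATG7FF without Cre, so the loss of Atg7 and the presence of the Cx3cr1CreER allele cannot be told apart. Both genotypes were C57BL/6, and both received 1.5 mg of tamoxifen at 2 months and were sampled at 8 months of age. Forebrain RNA came from 7 cKO and 6 control libraries of mice that also carried 5xFAD, a set of human familial Alzheimer's disease transgenes that leads to amyloid plaques. Microglia of mice without 5xFAD were sorted as CD11b-high, CD45-low cells, with 1 library pooled from 4 cKO forebrains and 1 pooled from 3 control forebrains. Atg7 encodes the enzyme that activates the ubiquitin-like proteins of autophagosome formation.

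Inhibitory receptors of myeloid cells carry a tyrosine-based motif in their cytoplasmic tail, abbreviated ITIM, which recruits the phosphatases SHP-1, SHP-2 and SHIP-1 (Ptpn6, Ptpn11 and Inpp5d) and dampens signals of activating receptors. Siglecs read sialic acid on glycans, SIRPα reads CD47, PirB binds MHC class I and the myelin inhibitors Nogo, MAG and OMgp, and CD300a binds phospholipids exposed on dying cells. Not every listed gene has that motif: mouse Siglec-H, a marker of microglia and of plasmacytoid dendritic cells, lacks it and pairs with the activating adaptor DAP12 (Tyrobp). Lilr4b encodes gp49A, which also lacks the motif and is a close copy of the inhibitory receptor gp49B (Lilrb4a). Mouse CD33 differs from human CD33 in its tail, and CD22 is best known as an inhibitory receptor of B cells.

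The forebrain libraries held between 16658707 and 22355512 counts each. The summed level of 13 microglia markers was 394 ± 10.9 CPM (counts scaled to library size) in cKO forebrains and 568 ± 35.8 CPM in control forebrains (SD, n = 7 and 6), with every cKO library below every control library. In these bulk samples fewer microglia and less RNA per microglial cell cannot be told apart. The 2 microglia libraries stood apart in depth and in clustering. After filtering, the cKO library kept 8874 cells with a median of 4532 UMIs, and the control library kept 6243 cells with a median of 1392 UMIs. A cluster led by Fos, Calr and Hspa5 held 2.46% of cKO cells and 93.2% of control cells, so that with 1 library per genotype the genotype and the library cannot be told apart. The libraries shared 22 cell barcodes. Atg7 itself was at 24.3 ± 1.32 CPM in cKO forebrains and 24.3 ± 2.09 CPM in control forebrains (SD, n = 7 and 6), and at 18.1 CPM in cKO microglia and 15.8 CPM in control microglia. The labels do not say which part of Atg7 is floxed, whole-gene counts of a forebrain hold every cell type and 3′ tags can lie outside the deleted part, so these values do not check the genotype.

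In 5xFAD forebrains, Siglech fell and Lilr4b rose in cKO mice, while Siglece, Cd33, Cd22, Sirpa and Cd300a did not pass the test. Siglech, a Siglec of microglia, was at 0.648 times its control level, and Lilr4b, at the lower limit of detection, was higher in every cKO library than in any control library. Pirb counts were too low to enter the test across all genes, and its mean was 2.36 times the control mean. Of the 8 genes, 7 passed the filter on low counts, and Lilr4b passed it only through its cKO libraries. Over all 16956 genes tested with edgeR's quasi-likelihood test, 0.277% fell and 0.0531% rose at an adjusted p of 0.05 or less. In 0.313% of those genes all cKO libraries lay below all control libraries, and in 0.13% all lay above.

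**Figure D1:**
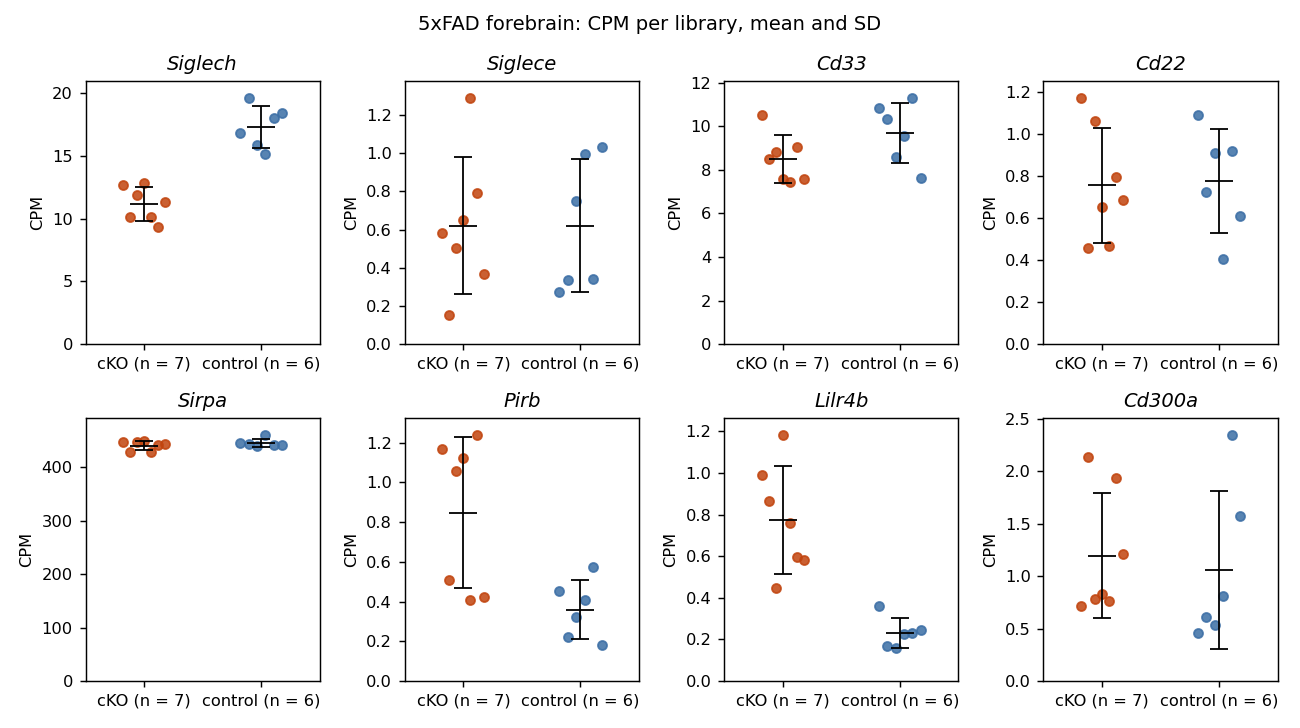
Each panel plots 1 gene in 5xFAD forebrains as CPM on a linear axis from 0, with 1 point per library, cKO (n = 7) left and control (n = 6) right, and the mean with SD in black. Siglech lies lower in all cKO libraries (9.32 to 12.8 CPM) than in all control libraries (15.1 to 19.6 CPM), Lilr4b lies higher in all cKO libraries, and the groups overlap for the other 6 genes.

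Promoters are shown for the 2 genes called in the forebrain and for Pirb, the 1 gene called in microglia, where each genotype had 1 library. The windows are the 250 bases before the RefSeq start on GRCm38.p6, 5′ to 3′ on the gene's strand. Capitals mark GAGGAA, the core letters bound by the myeloid factor PU.1, and TGACNNNGC, the core of the antioxidant response element, on either strand.
Siglech, chr7:55767934-55768183 on the plus strand: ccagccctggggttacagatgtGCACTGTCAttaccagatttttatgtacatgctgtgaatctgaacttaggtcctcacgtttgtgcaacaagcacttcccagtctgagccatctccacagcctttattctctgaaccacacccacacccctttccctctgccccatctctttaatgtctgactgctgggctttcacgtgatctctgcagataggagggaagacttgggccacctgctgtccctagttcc
Lilr4b, chr10:51480362-51480611 on the plus strand: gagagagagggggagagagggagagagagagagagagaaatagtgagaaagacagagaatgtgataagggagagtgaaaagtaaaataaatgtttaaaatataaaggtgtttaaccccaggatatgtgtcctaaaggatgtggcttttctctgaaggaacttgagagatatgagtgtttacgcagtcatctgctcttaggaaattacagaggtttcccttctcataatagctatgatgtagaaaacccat
Pirb, chr7:3720383-3720632 on the minus strand: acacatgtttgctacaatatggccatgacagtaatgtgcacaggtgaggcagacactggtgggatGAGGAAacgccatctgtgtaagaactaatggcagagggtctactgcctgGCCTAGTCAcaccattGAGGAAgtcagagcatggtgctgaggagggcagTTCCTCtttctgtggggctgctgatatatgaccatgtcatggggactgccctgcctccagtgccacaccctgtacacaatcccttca
The Pirb window held GAGGAA 3 times and TGACNNNGC once, and the 2 motifs did not overlap in it. Siglech held TGACNNNGC once and no GAGGAA, and Lilr4b held neither. A window was found for 7 of the 8 genes. GAGGAA occurred in 4 of those 7 and in 23.3% of 32851 RefSeq promoters of the same length. TGACNNNGC occurred in 3 of the 7 and in 10.2% of the promoters. A match describes letters only and shows no binding.

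Siglech (ENSMUSG00000051504) lies on the plus strand of chromosome 7 at 55768178 to 55778925 in mm10. In cKO forebrains its level had a lowest value of 9.32, a median of 11.3 and a highest value of 12.8 CPM, and in control forebrains these were 15.1, 17.4 and 19.6 CPM. No cKO library reached the lowest control library. The means were 11.2 ± 1.35 CPM in cKO and 17.3 ± 1.68 CPM in control forebrains (SD, n = 7 and 6), a log2 change of -0.63 (SE 0.09, adjusted p = 0.000681, edgeR's quasi-likelihood test). The change of Siglech lay beside that of the summed microglia markers, of which 8 of 13 fell with a median log2 change of -0.56. Csf1r, the receptor for the growth factor on which microglia depend, was at 74.6 CPM in cKO and 110 CPM in control forebrains. When library size was set to the summed marker counts, the Siglech difference was -0.10 on the log2 scale (SE 0.10, 95% interval -0.29 to 0.09, adjusted p = 0.316, edgeR's quasi-likelihood test), so that it was not told apart from the markers' own change.

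In CPM the partner of Siglec-H moved the same way. Tyrobp, which encodes DAP12, was at 10.6 ± 2.26 CPM in cKO and 17.8 ± 2.59 CPM in control forebrains (SD, n = 7 and 6), a log2 change of -0.76 (SE 0.12, adjusted p = 0.00316, edgeR's quasi-likelihood test). Its groups overlapped, with the highest cKO library at 15.03 CPM and the lowest control library at 14.8 CPM. Trem2, a phospholipid and lipoprotein receptor that signals through DAP12, was at 14.6 ± 1.36 CPM in cKO and 28.5 ± 4.18 CPM in control forebrains, a log2 change of -0.96 (SE 0.09, adjusted p = 7.74e-07, edgeR's quasi-likelihood test). All cKO libraries lay below all control libraries for Trem2. Relative to the summed microglia markers, the Tyrobp difference was -0.23 on the log2 scale (SE 0.11, adjusted p = 0.0470, edgeR's quasi-likelihood test), with overlapping groups. That of Trem2 was -0.43 (SE 0.08, adjusted p = 1.43e-05, edgeR's quasi-likelihood test), with all cKO libraries below all control libraries. On that scale 0.1% of all genes were lower, and Siglech was not among them. Of the 8 listed adaptors and activating partners, 5 were tested, 2 fell and 0 rose, with a median log2 change of -0.22. Over all genes tested that median was 0.0016, and 0.277% fell.

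Cd33 (ENSMUSG00000004609), a Siglec whose human counterpart is a risk gene for Alzheimer's disease, lies on the minus strand of chromosome 7 at 43524216 to 43544428. Its lowest, median and highest levels were 7.43, 8.50 and 10.5 CPM in cKO and 7.64, 9.92 and 11.3 CPM in control forebrains. The groups overlapped, although 6 of 7 cKO libraries lay below the control median. Its log2 change of -0.19 (SE 0.11, 95% interval -0.40 to 0.02) did not pass edgeR's quasi-likelihood test (adjusted p = 0.685). Relative to the summed microglia markers Cd33 was 0.34 higher on the log2 scale (SE 0.11, adjusted p = 0.00600, edgeR's quasi-likelihood test). On that scale 87.3% of all genes were higher and 0.1% lower at an adjusted p of 0.05 or less, and the median gene was 0.53 higher, so the count of genes called higher on it says nothing particular to Cd33.

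Siglece and Cd22 were near the limit of detection. Siglece (ENSMUSG00000030474, minus strand of chromosome 7, 43651070 to 43660161), the main inhibitory Siglec of mouse myeloid cells, had between 3 and 22 counts per cKO library and between 6 and 22 per control library. Its mean was 0.620 ± 0.359 CPM in cKO and 0.620 ± 0.348 CPM in control forebrains (SD, n = 7 and 6), and the interval of the log2 change ran from -0.79 to 0.77 (adjusted p = 0.997, edgeR's quasi-likelihood test). Cd22 (ENSMUSG00000030577, minus strand of chromosome 7, 30865402 to 30880342) averaged 0.755 ± 0.274 CPM in cKO and 0.775 ± 0.246 CPM in control forebrains, with an interval from -0.59 to 0.54 (adjusted p = 0.989, edgeR's quasi-likelihood test). The libraries of both genotypes spread over the same range for both genes. Exons of Cd22 overlap the antisense gene Gm29439 by 479 bases, and Gm29439 had 0 counts in all libraries.

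Sirpa (ENSMUSG00000037902), the CD47 receptor that is abundant on neurons as well as on myeloid cells, lies on the plus strand of chromosome 2 at 129592835 to 129632228. It had a lowest value of 429, a median of 444 and a highest value of 449 CPM in cKO forebrains, against 439, 443 and 461 CPM in control forebrains. The 2 groups lay over each other in a narrow range. The log2 change was -0.02 (SE 0.03), with an interval from -0.08 to 0.05 (adjusted p = 0.926, edgeR's quasi-likelihood test). Its ligand Cd47 was at 207 ± 15.7 CPM in cKO and 213 ± 8.46 CPM in control forebrains (SD, n = 7 and 6, log2 change -0.04, adjusted p = 0.846, edgeR's quasi-likelihood test).

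Pirb (ENSMUSG00000058818) lies on the minus strand of chromosome 7 at 3711409 to 3720391 among near-identical activating Pira genes, between which reads may be split. Its counts were 26, 10, 19, 19, 7, 25 and 8 in cKO libraries 1 to 7, against 10, 4, 6, 9, 10 and 3 in control libraries 1 to 6. As CPM the lowest, median and highest values were 0.409, 1.06 and 1.24 in cKO and 0.182, 0.364 and 0.573 in control forebrains. Every cKO library lay above the control median, 4 cKO libraries lay above all control libraries, and 3 lay within the control range. The mean was 0.847 ± 0.380 CPM in cKO and 0.360 ± 0.147 CPM in control forebrains (SD, n = 7 and 6), and an exact permutation test over the 13 libraries, with 1716 arrangements, gave a two-sided p of 0.0233 for this single gene, not adjusted for other genes. Without the filter on low counts the log2 change was 1.22 (SE 0.36), which did not pass edgeR's quasi-likelihood test over all genes (adjusted p = 0.216). Set against the summed microglia markers, where 57.3% of all genes tested had every cKO library above every control library and 0.0354% every one below, Pirb lay between 9.94 and 32.0 counts per 10000 marker counts in cKO libraries and between 3.27 and 8.99 in control libraries, and the groups did not overlap. That separation says nothing particular to Pirb. On this scale the whole transcriptome was shifted up in cKO by a median of 0.53 log2 units, and Pirb by 1.74 (SE 0.36) in the fit without the count filter.

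Lilr4b (ENSMUSG00000112023), which encodes gp49A, lies on the plus strand of chromosome 10 at 51480632 to 51486703. It had 22, 17, 8, 20, 13, 12 and 11 counts in cKO libraries 1 to 7, against 8, 3, 3, 5, 4 and 4 in control libraries 1 to 6. As CPM the lowest, median and highest values were 0.446, 0.760 and 1.18 in cKO and 0.160, 0.227 and 0.362 in control forebrains, with no overlap. The log2 change was 1.70 (SE 0.33, adjusted p = 0.0174, edgeR's quasi-likelihood test). Since the gene passed the count filter only through its cKO libraries, the fit without that filter stands beside it, with the same log2 change of 1.70 (SE 0.40, adjusted p = 0.0197, edgeR's quasi-likelihood test). This call rests on few reads: without control library 2, 3 or 4 the adjusted p was 0.0524, 0.0619 or 0.0510 in edgeR's quasi-likelihood test, and without any cKO library other than replicate 3 the gene was left out by the count filter. Its inhibitory copy Lilrb4a (gp49B) was at 1.25 ± 0.426 CPM in cKO and 0.875 ± 0.168 CPM in control forebrains (SD, n = 7 and 6). The log2 change of Lilrb4a, 0.52, did not pass edgeR's quasi-likelihood test (adjusted p = 0.645), and the counting could split reads between both genes. Exons of Lilr4b overlap Gm49339 on the same strand by 122 bases, and Gm49339 had 0 counts in all libraries. Summed border macrophage markers were at 30.7 to 37.7 CPM in cKO and 28.4 to 33.6 CPM in control forebrains, with none of the 10 at 0, and 0 of the 8 tested were called. Of these, Ms4a7 was at 0.755 CPM in cKO and 0.338 CPM in control forebrains (log2 change 1.14, adjusted p = 0.283) and Stab1, which carries most of the sum, at 19.9 CPM in cKO and 15.7 CPM in control forebrains (log2 change 0.34, adjusted p = 0.105, edgeR's quasi-likelihood test). Both were above the control median in 7 of 7 cKO libraries, and Pf4 in 0 of 7. The median log2 change of the 8 tested markers was -0.01, against 0.0016 over all genes tested. Stab1 was also found in the sorted microglia, at 231 CPM in the cKO library and 176 CPM in the control library. The part of border macrophages in the Lilr4b and Pirb values was not tested. Summed monocyte markers were at 12.2 to 19.5 CPM in cKO and 17.6 to 21.9 CPM in control forebrains.

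Cd300a (ENSMUSG00000034652), the phosphatidylserine-binding receptor on the plus strand of chromosome 11 at 114890041 to 114904654, varied more within genotypes than between them. Its lowest, median and highest levels were 0.719, 0.828 and 2.14 CPM in cKO and 0.453, 0.713 and 2.35 CPM in control forebrains. The 2 highest libraries of each genotype (cKO 2 and 6, control 5 and 6) reached at least 1.58 CPM, and the other libraries lay at or below 1.21 CPM. Its log2 change of 0.22 (SE 0.38) did not pass edgeR's quasi-likelihood test (adjusted p = 0.905), and it was 0.62 without control library 5 and 0.02 without cKO library 2.

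Scaled per kilobase of exon as well as by library size (RPKM), the order of levels in forebrain was led by Sirpa, at 89.8 ± 1.76 RPKM in cKO and 90.8 ± 1.59 RPKM in control samples (SD, n = 7 and 6). Siglech followed at 3.31 ± 0.401 RPKM in cKO and 5.12 ± 0.497 RPKM in control forebrains, then Cd33 at 1.09 ± 0.141 RPKM in cKO and 1.25 ± 0.178 RPKM in control forebrains. The means of the other 5 genes lay between 0.142 and 0.335 RPKM in cKO and between 0.0425 and 0.336 RPKM in control forebrains. Among these 5, neighbours in the order differed by less than their SDs in cKO forebrains. In control forebrains Pirb and Lilr4b were the lowest, at 0.0804 ± 0.0329 and 0.0425 ± 0.0134 RPKM.

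**Figure D2:**
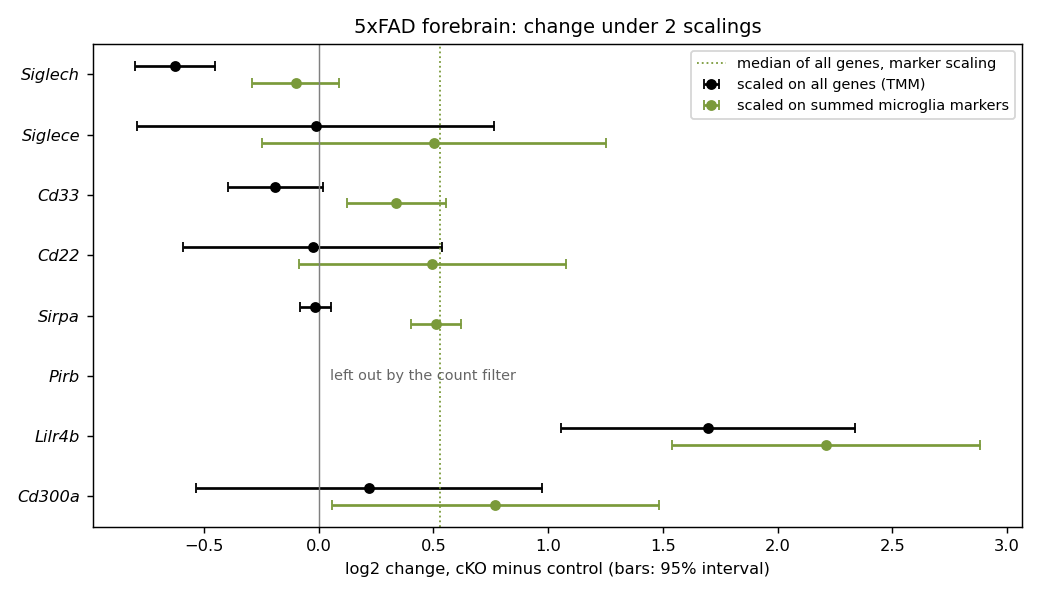
Points are log2 changes of each gene in 5xFAD forebrains, cKO minus control, with bars of 95% intervals, in black scaled on all genes and in green relative to the summed microglia markers. The green dotted line is the median of all genes on the marker scale (0.53), next to which Siglech sits at -0.10, Cd33 at 0.34 and Lilr4b at 2.21.

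Receptors of the same kind outside the 8 genes were described from a list of 23 other inhibitory receptors. Of these 13 were tested, 2 fell and 0 rose, with a median log2 change of -0.22. Over all genes tested 0.277% fell and 0.0531% rose. Fcgr2b, the inhibitory receptor for IgG, was at 5.03 ± 0.556 CPM in cKO and 8.65 ± 1.90 CPM in control forebrains (SD, n = 7 and 6, log2 change -0.78, SE 0.13, adjusted p = 0.00339, edgeR's quasi-likelihood test). Lag3, an inhibitory receptor that also binds MHC class II, was at 5.80 ± 0.882 CPM in cKO and 9.54 ± 1.05 CPM in control forebrains (log2 change -0.72, SE 0.11, adjusted p = 0.00129, edgeR's quasi-likelihood test). Both lay lower in every cKO library than in any control library, as did 0.313% of all genes tested. Relative to the summed microglia markers, the Fcgr2b difference was -0.24 on the log2 scale (SE 0.12, adjusted p = 0.0622, edgeR's quasi-likelihood test). That of Lag3 was -0.19 (SE 0.11, adjusted p = 0.117, edgeR's quasi-likelihood test). The groups overlapped on that scale, so neither gene was told apart from the markers' own change. Scaled on all genes and with replicate numbers as a block, Fcgr2b had an adjusted p of 0.117 and Lag3 of 0.0202 in edgeR's quasi-likelihood test. In the list of phosphatases and kinases of ITIM signalling, which also holds genes of neither kind such as Grb2 and Socs3, 0 of 15 tested genes passed. Ptpn6, which encodes SHP-1, had a log2 change of -0.12 (adjusted p = 0.831), and Inpp5d, which encodes SHIP-1, had 13.2 CPM in cKO and 16.9 CPM in control forebrains (log2 change -0.35, adjusted p = 0.0633, edgeR's quasi-likelihood test). Inpp5d did pass under DESeq2 (adjusted p = 0.00728), with offsets for GC content and length (0.0341) and without the count filter (0.0443). Neither the 12 tested protein ligands nor the 21 tested genes of the sialic acid list, which also holds Clu and Pld3, gave a call, with median log2 changes of 0.03 and -0.01. Of 14 listed close paralogs, 10 were in the table and 1 was tested, Cd300c2, without a call (log2 change -0.39, adjusted p = 0.551, edgeR's quasi-likelihood test).

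In sorted microglia without amyloid, Pirb was the 1 member that passed the limits of 20 CPM in a library and a 1.5-fold ratio, and it was higher in the cKO library. Pirb met the limit of 20 CPM only through that cKO library, with 18.6 CPM in the control library. Siglech, Siglece, Cd33, Sirpa and Cd300a lay within 1.5-fold, and Cd22 and Lilr4b were under 20 CPM in both libraries. Values are UMIs of each gene summed over all kept cells and scaled to CPM of that library, with 95% exact intervals that cover counting error only, and there is no replicate check. By the same limits 1.88% of 6769 genes were higher and 1.43% lower in the cKO library.

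Pirb had 2206 UMIs (55.1 CPM) in the cKO library and 170 UMIs (18.6 CPM) in the control library, a ratio of 2.96 (interval 2.53 to 3.48). That ratio ranked 12 among the 6769 genes at or above 20 CPM in at least 1 library, a level that Pirb reached only in the cKO library. A Pirb UMI was seen in 20.1% of cKO cells and 2.61% of control cells, at median depths of 4532 and 1392 UMIs. After thinning each cell to 1000 UMIs the shares were 5.19% of 8331 cKO cells and 1.77% of 5655 control cells, with 543 cKO and 588 control cells left out as shallower. In the 35 cKO and 15 control cells of a cluster led by Ttr and Enpp2, genes of choroid plexus, a Pirb UMI was seen in 14.3% of cKO cells (exact interval 4.81 to 30.3%) and 0% of control cells (0 to 21.8%), at median depths of 3048 and 1812 UMIs. That cluster also held Siglech at 837 CPM in cKO and 497 CPM in control cells. Its Pirb share in cKO was thus not told apart from that of all cKO cells, and the part of free RNA or of microglia mixed into these droplets was not tested. By depth, in bands chosen after seeing the data, the ratio was 3.44 in cells with 500 to 1000 UMIs, 3.97 from 1000 to 1500 and 3.65 from 1500 to 3000. From 3000 to 6000 UMIs it was 1.66 (interval 0.926 to 3.34), where the control library had 94 cells and 11 Pirb UMIs. The bands compare different clusters: an unnamed cluster of low-UMI cells held 84.7%, 81.1% and 32.3% of the cKO cells in the 3 lower bands, while the Fos and Calr cluster held 98.5%, 96.5% and 89.5% of the control cells there. Per 10000 UMIs of microglia markers, Pirb had 12.7 UMIs in the cKO library and 3.83 in the control library, a ratio of 3.31.

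Of the 6 microglia-like clusters, 3 gave a Pirb ratio with an interval that lay above 1 and at least 7 UMIs in each library. In the Fos and Calr cluster that held most control cells it was at 36.7 CPM in 218 cKO cells and 18.5 CPM in 5821 control cells, a ratio of 1.98 (interval 1.18 to 3.17). In a cluster led by histone genes the levels were 50.8 CPM in 2360 cKO cells and 19.5 CPM in 179 control cells, a ratio of 2.61 (interval 1.37 to 5.73). In the cluster led by Lyz2 and Apoe they were 56.8 CPM in 4704 cKO cells and 27.1 CPM in 158 control cells, a ratio of 2.10 (interval 1.02 to 5.23). These ratios were below the ratio of 2.96 over all cells, but each of their intervals holds that ratio. The interferon cluster, led by Ifit3, had 79.7 CPM in 96 cKO cells and 12.8 CPM in 51 control cells, the second from 1 UMI. Its Pirb ratio was 6.25 (interval 1.06 to 253). Proliferating cells led by Mki67 had 6 Pirb UMIs in 52 cKO cells and 0 in 12 control cells, and a cluster led by Dbi and Tubb2b had 0 in 77 cKO cells and 0 in 4 control cells. The unnamed low-UMI cluster, with 1332 cKO and 3 control cells, had 80.1 CPM in its cKO cells.

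**Figure D3:**
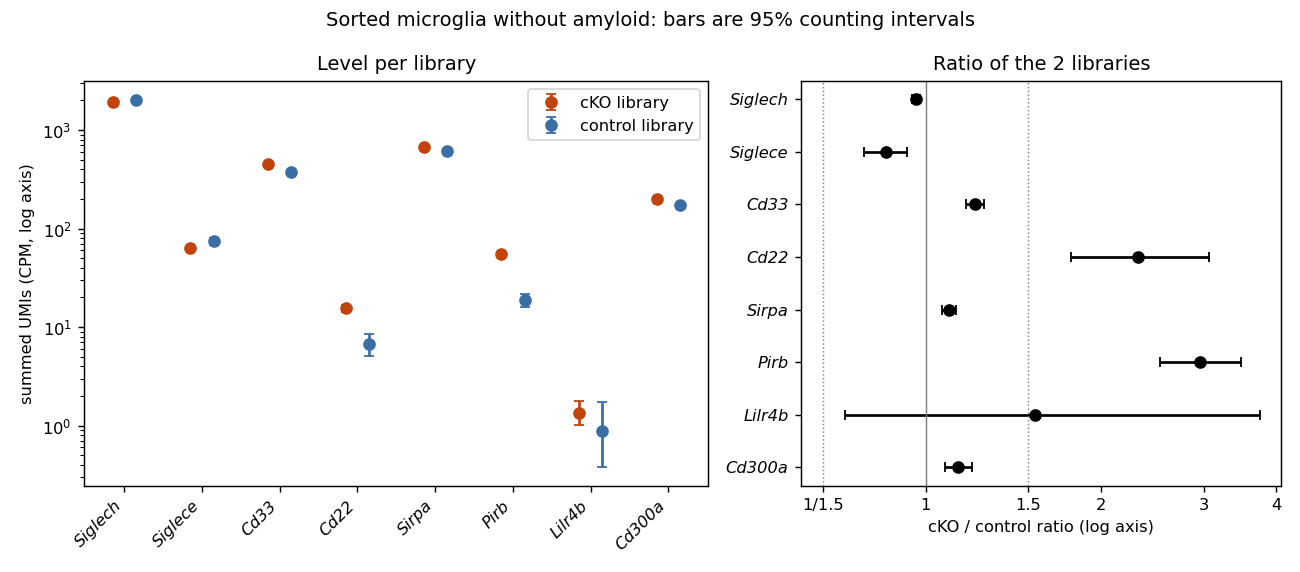
On the left each point is the level of 1 gene in the cKO (orange) or control (blue) microglia library, as summed UMIs scaled to CPM on a log axis, and on the right is the cKO to control ratio on a log axis with dotted lines at a 1.5-fold ratio in either direction. Bars are 95% counting intervals, and Pirb stands at a ratio of 2.96 while Siglech is at 0.962.

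Siglech was the most abundant of the 8 in microglia, at 1943 CPM in the cKO library and 2019 CPM in the control library, a ratio of 0.962 (interval 0.947 to 0.978). Per 10000 marker UMIs it had 447 UMIs in the cKO library and 415 in the control library. The level was lower in proliferating cells led by Mki67 and Top2a, at 936 CPM in 52 cKO cells and 976 CPM in 12 control cells, than in the Fos and Calr cluster, at 1855 CPM in cKO and 2041 CPM in control cells. In the same proliferating cells Sirpa was at 374 CPM in cKO and 325 CPM in control cells, and Cd300a at 113 CPM in cKO and 93.0 CPM in control cells, the control values from 7 and 2 UMIs. The adaptor Tyrobp was at 2786 CPM in the cKO library and 2817 CPM in the control library (ratio 0.989), but its ratio was 0.668 in cells with 1500 to 3000 UMIs. Trem2 had a ratio of 0.983.

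Cd33 was at 451 CPM in the cKO library and 371 CPM in the control library, a ratio of 1.21 (interval 1.17 to 1.26). Across bands of depth the ratio was 1.66 from 500 to 1000 UMIs, 1.70 from 1000 to 1500, 1.40 from 1500 to 3000 and 1.26 from 3000 to 6000. Within the Fos and Calr cluster Cd33 was at 339 CPM in cKO and 370 CPM in control cells, a ratio of 0.916 with an interval (0.785 to 1.06) that spans 1. The ratio was 1.21 in the histone cluster (interval 1.04 to 1.41) and 1.11 in the Lyz2 and Apoe cluster (interval 0.915 to 1.37). The unnamed low-UMI cluster had 679 CPM of Cd33 in its cKO cells.

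**Figure D4:**
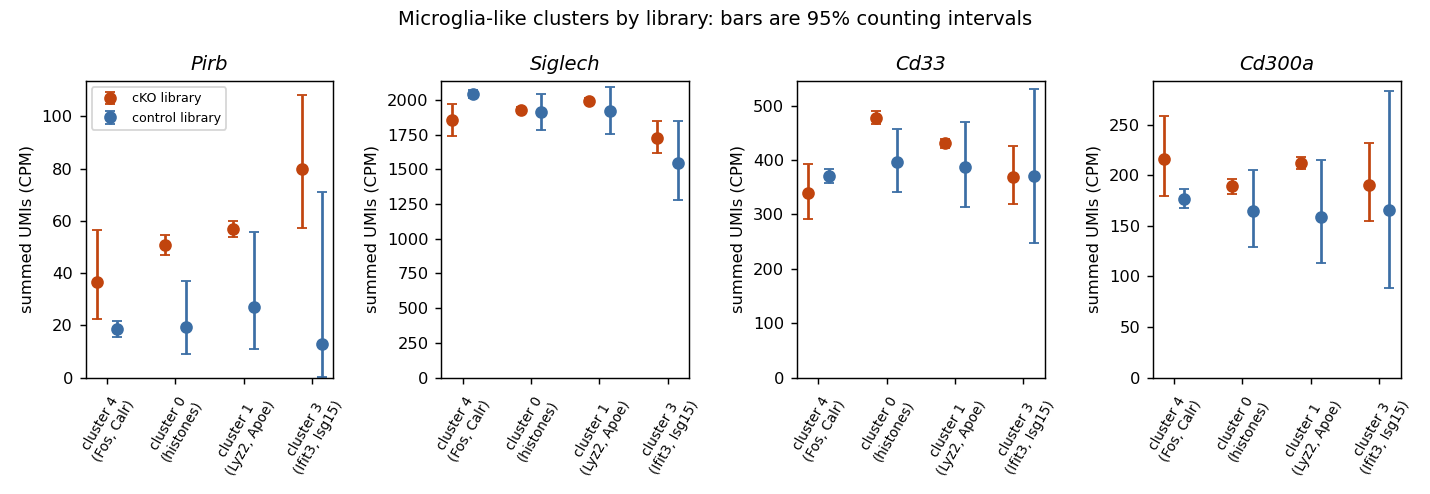
Each panel plots 1 gene as summed UMIs scaled to CPM in 4 of the 6 microglia-like clusters, cKO (orange) left of control (blue), with 95% counting intervals. Pirb lies higher in the cKO library in each of the 4 clusters (36.7 against 18.5 CPM in cluster 4), while Siglech, Cd33 and Cd300a lie close to each other, with Cd33 lower in the cKO library in cluster 4.

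Sirpa was at 680 CPM in the cKO library and 620 CPM in the control library (ratio 1.10, interval 1.06 to 1.13), and Cd47 at 284 CPM in cKO and 255 CPM in control (ratio 1.11). Cd300a was at 199 CPM in the cKO library and 175 CPM in the control library (ratio 1.14, interval 1.08 to 1.20). By depth, the Cd300a ratio was 0.645 (interval 0.456 to 0.906) in cells with 500 to 1000 UMIs and 0.847 (interval 0.700 to 1.02) from 1000 to 1500. It was 1.12 (interval 0.982 to 1.28) from 1500 to 3000 and 1.19 (interval 0.915 to 1.59) from 3000 to 6000. Only the interval of the lowest band left out 1, and the bands also differ in cluster. Within the Fos and Calr cluster Cd300a was at 216 CPM in cKO and 177 CPM in control cells, a ratio of 1.22. The Sirpa ratio lay between 0.926 and 1.27 over the same bands. Siglece was at 63.1 CPM in the cKO library and 74.0 CPM in the control library (ratio 0.853, interval 0.783 to 0.930). Its ratio was 0.404 in cells with 1000 to 1500 UMIs and 1.92 in those with 3000 to 6000, the second from 11 control UMIs in 94 cells. Within the Fos and Calr cluster its ratio was 1.05 (interval 0.755 to 1.44). Cd22 had 619 UMIs (15.5 CPM) in the cKO library and 61 UMIs (6.69 CPM) in the control library, a ratio of 2.31 (interval 1.78 to 3.06). In the Fos and Calr cluster its ratio was 1.10 (interval 0.290 to 2.99), from 4 cKO UMIs and 55 control UMIs. Of the defining B cell markers Ms4a1 and Pax5 were at 0 in both libraries. Lilr4b had 54 UMIs in the cKO library and 8 in the control library, a ratio of 1.54 with an interval from 0.728 to 3.74, so a difference was not detectable at this depth.

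Few genes of the wider lists passed the limits in microglia. Of 23 other inhibitory receptors, 12 reached 20 CPM and 0 passed a 1.5-fold ratio, with a median log2 ratio of -0.05 against 0.05 over all genes at this level. Fcgr2b and Lag3, which fell in 5xFAD forebrain, had ratios of 1.04 and 1.17 in these microglia. Lilrb4a was under 20 CPM, at 218 UMIs in the cKO library and 14 in the control library, a ratio of 3.55 (interval 2.07 to 6.60). Of the list of phosphatases and kinases, 13 genes reached 20 CPM. Socs3 of that list, an inhibitor of cytokine signalling that is neither, was lower at 77.1 CPM in the cKO library and 121 CPM in the control library (ratio 0.638). Ptpn6 had a ratio of 1.03 and Inpp5d of 0.976. Of the ligand list, Apoe was higher at 522 CPM in the cKO library and 180 CPM in the control library (ratio 2.91), and of the sialic acid list St6gal1, which adds sialic acid to N-glycans, was higher at 39.5 CPM in cKO and 24.7 CPM in control (ratio 1.60). The border macrophage marker sum was 247 CPM in the cKO library and 183 CPM in the control library, with Cd163 and Lyve1 at 0. Stab1 alone made up 231 CPM of it in the cKO library and 176 CPM in the control library, and Mrc1 was at 12.6 CPM in cKO and 4.71 CPM in control. Without cells that held at least 2 UMIs of border macrophage, monocyte, neutrophil, B cell or T and NK cell markers, an alternative chosen after seeing the data, the Pirb ratio was 3.35. This left 3992 of 8874 cKO cells and 5416 of 6243 control cells, and the lists hold Stab1, seen in 59.4% of cKO and 21.8% of control cells, and Ighm, seen in 61.1% of cKO and 32.3% of control cells.

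Covariation over the 13 forebrain libraries was described with group means removed, as a Pearson correlation of log2 CPM. The 3 genes most like Siglech were Thsd7b (r = 0.91), Pctp (0.90) and Rpl12 (0.86), and those for Siglece were Actn4 (0.93), Fiz1 (0.92) and Zfpm1 (0.91). For Cd33 they were Gm26809 (0.95), Cd180 (0.89), a receptor of B cells and myeloid cells, and 4732487G21Rik (0.87). Zfp87 (0.93), Snrpb2 (0.87) and Zbtb25 (0.86) came nearest to Cd22, and Ppp1r36 (0.86), Btbd9 (0.84) and Kctd16 (0.82) to Sirpa. Gm3608 (0.89), Spata9 (0.87) and Gm9870 (0.87) came nearest to Lilr4b, and Baz1a (0.95), Plaur (0.91), the urokinase receptor, and Rcor1 (0.91) to Cd300a. Pirb was not tested and has no such genes. Such values, chosen from 16956 genes over 13 libraries, are a description only. Among the tested members themselves r ran from -0.48, between Siglece and Cd33, to 0.57, between Cd33 and Cd22, and r with the summed microglia markers lay between -0.11 and 0.37.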

How the data were processed

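Groups were taken from the genotype labels for the microglia libraries and from the sample titles for the forebrain libraries. The genes and lists were chosen with earlier results of these data known. The forebrain values are read counts per gene that the authors deposited without normalization. Per the submitters' processing notes these came from HISAT2 2.0.5 alignments to mm10 that were counted by featureCounts 1.5.0-p3, and per the labels' protocols RNA was selected with poly-T beads. The microglia values are deposited UMI counts from Cell Ranger 6.1.0, per the file headers. For the counting, the strand setting, the handling of reads shared by paralogs and the annotation release are not given in the sources used, and positions are those of GENCODE M21. No label calls each forebrain library a separate mouse, so the spread behind the p-values may be technical. Within a genotype all pairs of libraries differed by more than sampling noise (chi-square per degree of freedom of 2.75 or more).

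Forebrain counts were tested with edgeR 4.0.16 in R 4.3.3 (filterByExpr, TMM, robust quasi-likelihood F-test, two-sided, Benjamini-Hochberg over all genes tested, threshold 0.05). CPM use TMM-scaled totals, and SE is the standard error of a log2 change. The relative scale replaced library size by the summed counts of 13 microglia markers. Alternatives were median-ratio scaling, DESeq2 1.42.0, no count filter, no robust estimation, GC and length offsets, a replicate block, other marker sets and leaving out each library. The main edgeR fit and the formula for the interval of a single-cell ratio were tested on simulated data. The permutation test, the correlations, the clustering and the alternative fits were not.

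Microglia were kept with at least 500 genes and at most 10% mitochondrial UMIs (Python 3.11.15, scanpy 1.11.5). This kept 8874 of 9840 cKO and 6243 of 6633 control barcodes. Clusters came from 2000 variable genes, which held 0 members, 30 principal components, 15 neighbours and Leiden resolution 0.5. Microglia-like cells, used as an alternative, left out an unnamed low-UMI cluster of 1332 cKO and 3 control cells and, by a rule added after clusters were seen, a cluster of 35 cKO and 15 control cells led by Ttr and Enpp2. Doublets were not called, and an alternative left out the 5% of cells with most UMIs. Intervals are exact Poisson, conditional binomial or Clopper-Pearson at 95%. The text names all members, the genes of the lists called in either comparison, Cd47, Ptpn6, Inpp5d, Tyrobp and Lilrb4a, and the 3 genes most like each member tested in forebrain. Other genes are named as markers or paralogs. Ms4a7, Stab1, Pf4 and Ighm were singled out after their values were seen. Promoter sequences are RefSeq's on GRCm38.p6. A search for protein motifs was not run.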

Additional observations from a re-analysis of the deposited data

Results flagged for a closer look

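Sirpa was at 461 CPM in control forebrain replicate 4, and the next highest of the 6 control libraries was at 446 CPM. The gap was 0.698 of the range of that group. About 1 in 20 groups gives such a gap by chance, and 16 groups were looked at. Without that library no Sirpa call changed.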

How the results depend on the processing

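Siglech kept its direction and its call in all 13 fits that left out 1 library (log2 change -0.66 to -0.58, adjusted p 0.00066 to 0.00318). The count of members that fell was 1 in each of them. The count that rose was 0 to 1 over the 7 fits in which Lilr4b was tested. DESeq2 gave Lilr4b no adjusted p. Correlations of same-numbered libraries ran from -0.26 to 0.16, and no correlations of differently numbered libraries were set beside them. Whether the numbers pair samples was thus not settled. With the replicate block 0 members fell and 0 rose, as Siglech had an adjusted p of 0.0549 and Lilr4b of 0.0600 in edgeR's quasi-likelihood test, and Siglece turned to a log2 change of 0.085. Leaving out 1 library moved Siglece between -0.28 and 0.19, Cd22 between -0.17 and 0.11, and Cd300a between 0.02 and 0.62. Relative to the microglia markers 3 members (Cd33, Sirpa and Lilr4b) were higher, and 3 to 4 when 1 library was left out. Without the count filter 5 were higher, which adds Pirb and Cd300a. In the main fit on that scale 87.3% of all genes tested were higher, so these counts say nothing particular to the members. Over all genes, 47 fell and 9 rose, against 21 and 1 with the replicate block, 30 to 50 and 3 to 23 when 1 library was left out, with 16 risen under DESeq2 and 23 without the count filter. In microglia the Pirb ratio ran from 2.83 to 3.64 over 8 alternatives, 2 of them chosen after seeing the data, and Cd22 from 1.69 to 2.54. Siglece, Cd22, Pirb and Lilr4b are limited by counts of 3 to 26 per forebrain library.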
